A study of Homo sapiens with 18 samples.

Results

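The interferon-induced antiviral effector genes are the genes whose proteins block viral entry, translation, replication or release once a cell has sensed interferon. They were described here as a list of 40 genes out of 18404 genes measured on the same arrays. The list was chosen by symbol, with earlier results of these data known. All 40 were measured, each by 1 probe set annotated to that gene alone. The list was checked in MCF10A, an established line of non-tumorigenic human mammary epithelial cells, on 18 Affymetrix arrays in 6 groups of 3. Cells of 3 groups carried a non-targeting hairpin (shNT) and received YAP/TAZ cDNA, ESR1 cDNA, or both YAP/TAZ and ESR1 cDNA. The knockdown groups carried shLATS1B, a hairpin against LATS1, or shLATS1+2, labelled as a knockdown of LATS1 together with LATS2, each with control cDNA. The control arrays came from cells with shNT and control cDNA. Every group, the controls included, was infected with lentivirus at a multiplicity of 5, selected in 1.5 µg/ml puromycin for 4 days and rested for at least 7 days. Plasmid was then introduced transiently with a lipid reagent, and RNA was taken after 5 days in a medium with estrogen. No untransfected or uninfected cells were analysed here, so all levels include whatever the virus and the plasmid do in common to the 6 groups.

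Type I and type III interferons bind receptors on the cell surface and activate a complex that holds IRF9. This complex binds the interferon-stimulated response element (ISRE) in the promoters of many genes, of which the antiviral effectors are the best known. Epithelial cells can make these interferons when sensors such as RIGI or IFIH1 detect RNA, or when the cytosolic DNA pathway through STING1 is engaged. YAP and TAZ are co-activators held back by LATS1 and LATS2, kinases of the Hippo pathway, and ESR1 is the estrogen receptor.

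The question here was how steeply, and in what order, single effector genes differed between the 5 groups and the control. The arrays' own targets put limits on the labels. LATS1 averaged 7.66 with shLATS1B and 7.76 with shLATS1+2, against 8.86 in the control arrays (log2 intensity, n = 3 each), but LATS2 averaged 7.82 with shLATS1+2, against 7.73. YAP1 averaged 10.79 with YAP/TAZ cDNA and 10.88 with both cDNAs, against 10.84. WWTR1, the gene for TAZ, averaged 9.44 with YAP/TAZ cDNA, 9.99 with both cDNAs, 10.01 with shLATS1B and 9.80 with shLATS1+2, against 9.57. With YAP/TAZ cDNA its arrays overlapped the controls, and with both cDNAs, as with shLATS1B, all 3 lay above them. ESR1 averaged 6.47 with ESR1 cDNA, 6.03 with both cDNAs, 6.37 with shLATS1B and 6.40 with shLATS1+2, against 5.53. Where in a transcript these probe sets lie was not analysed here, so a transfected cDNA may escape them, and the groups are called by their labels throughout. The first principal component held 47.3% of the variance over all genes and set the YAP/TAZ, ESR1 and control arrays (scores -23.0 to -10.3) apart from those of the 2 knockdowns and of both cDNAs together (9.8 to 22.7). The labels name no batch, so group and batch cannot be told apart in any comparison, whether or not it crosses this division. What the division stems from was not tested. The comparisons that stay on 1 side of it are those of each single cDNA with the control, of the 2 single cDNAs, of both cDNAs with the knockdowns, and of the knockdowns with each other.

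Promoters of the effector genes were read from RefSeq (GRCh38.p14), in windows from 250 bases before to 50 after each annotated start. Of the 40 genes, 34 matched the table, with 48 windows between them. IFIT2, OAS2, OASL, MX2, TRIM22 and USP18 are not shown. The ISRE core was taken as 2 copies of GAAA with any 2 bases between them. It was searched on both strands, where the other strand reads TTTC in place of GAAA, and overlapping matches were all kept. It was present for 25 of the 34 genes (73.5%), against 4.38% of the 27305 genes in the table. By window the shares were 30 of 48 (62.5%) and 3.57% of 35116 windows. The core of the gamma-activated site, TTCNNNGAA, was present for 11 of the 34 (32.4%), against 9.38% of all genes, and it can overlap an ISRE core. The stretches shown are those of IFIT1, the steepest riser, and of RSAD2, always among the top 3, then of 3 genes that differed between the groups, then a core shared by 2 divergent genes, and then the 2 genes that did not move. Capitals mark ISRE cores and all stretches run 5′ to 3′ along the gene's strand.
IFIT1 (chr10:89392495-89392541, + strand): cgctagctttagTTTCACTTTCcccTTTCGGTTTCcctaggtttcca
RSAD2 (chr2:6877620-6877653, + strand): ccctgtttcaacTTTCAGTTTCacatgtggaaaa
HERC5 (chr4:88456982-88457066, + strand): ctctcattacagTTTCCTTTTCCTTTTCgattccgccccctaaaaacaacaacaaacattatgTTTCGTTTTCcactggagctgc
ISG15 (chr1:1013372-1013411, + strand): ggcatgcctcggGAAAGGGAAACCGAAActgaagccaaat
DDX60 (chr4:168318784-168318852, - strand): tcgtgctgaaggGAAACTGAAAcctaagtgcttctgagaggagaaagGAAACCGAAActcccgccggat
PARP9 (chr3:122564320-122564353, - strand): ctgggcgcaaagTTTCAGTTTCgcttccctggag
MX1 (chr21:41431842-41431875, + strand): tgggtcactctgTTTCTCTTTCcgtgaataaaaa
EPSTI1 (chr13:42992270-42992303, - strand): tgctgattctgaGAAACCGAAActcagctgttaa
Counted from the start of the gene, the cores of IFIT1 began at -116 and -103 and that of RSAD2 at -145. In HERC5 and ISG15 adjacent cores overlapped. The PARP9 core, which began at -41 from the PARP9 start, lies on the opposite strand at -6 from the start of DTX3L, the neighbouring gene and the partner of PARP9 in 1 complex. The core of MX1 shown belongs to 1 of 3 annotated starts, at -196, and that of EPSTI1 began at -50. Among matched genes the 9 with no core in the window were OAS1, IFI35, XAF1, CMPK2, HERC6, SAMD9L, SP110, UBE2L6 and HELZ2. With both cDNAs the median log2 change from control was 1.77 for the 25 genes with a core (from -0.05 to 5.54) and 2.47 for these 9 (from 0.85 to 3.70), and with YAP/TAZ cDNA 1.20 and 1.29. These are descriptions of the letters in the windows, since nothing in the arrays measures binding.

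In every group 38 of the 40 effector genes rose against the control arrays and 0 fell (limma's moderated test over all 18404 genes, called at an adjusted p under 0.05). The share of all genes that was called higher was 3.16% with YAP/TAZ cDNA, 7.04% with ESR1 cDNA, 14.7% with both, 12.4% with shLATS1B and 11.8% with shLATS1+2, and the share called lower was 3.84%, 11.9%, 14.7%, 11.6% and 13.0%. The median log2 change of the 40 genes was 1.29, 1.77, 2.04, 1.42 and 1.49 in that order of groups, while the median over all genes lay between -0.008 and 0.0021. The same 38 genes had all 15 arrays of the 5 groups above all 3 control arrays, which held for 2.93% of all genes. The others, MX1 and EPSTI1, did not pass in any group. All 5 comparisons use the same 3 control arrays, so their counts are not independent of each other. Those of both cDNAs and of the knockdowns also cross the division of the first component. The list was chosen with earlier results of these data known, so these counts describe its rise and do not test it. Since RNA was taken from whole cultures, a rise in a few cells and a smaller rise in all of them cannot be told apart.

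The effector genes also filled much of the top of the whole ranking. With YAP/TAZ cDNA they made up 6 of the 10 and 33 of the 100 steepest rises among 18404 genes. With ESR1 cDNA these counts were 7 and 31, with both cDNAs 5 and 26, with shLATS1B 6 and 21, and with shLATS1+2 6 and 21. Per array, the median of the 40 genes relative to the control mean was 1.30, 1.35 and 1.33 with YAP/TAZ cDNA and 1.74, 1.74 and 1.69 with ESR1 cDNA. It was 2.03, 2.02 and 2.00 with both cDNAs, 1.47, 1.38 and 1.38 with shLATS1B and 1.48, 1.50 and 1.54 with shLATS1+2, against -0.10, 0.12 and -0.03 in the control arrays. The control arrays spread more over the effector genes (median SD 0.154) than over all genes (0.079), while with YAP/TAZ cDNA these medians were 0.055 and 0.057.

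**Figure D1:**
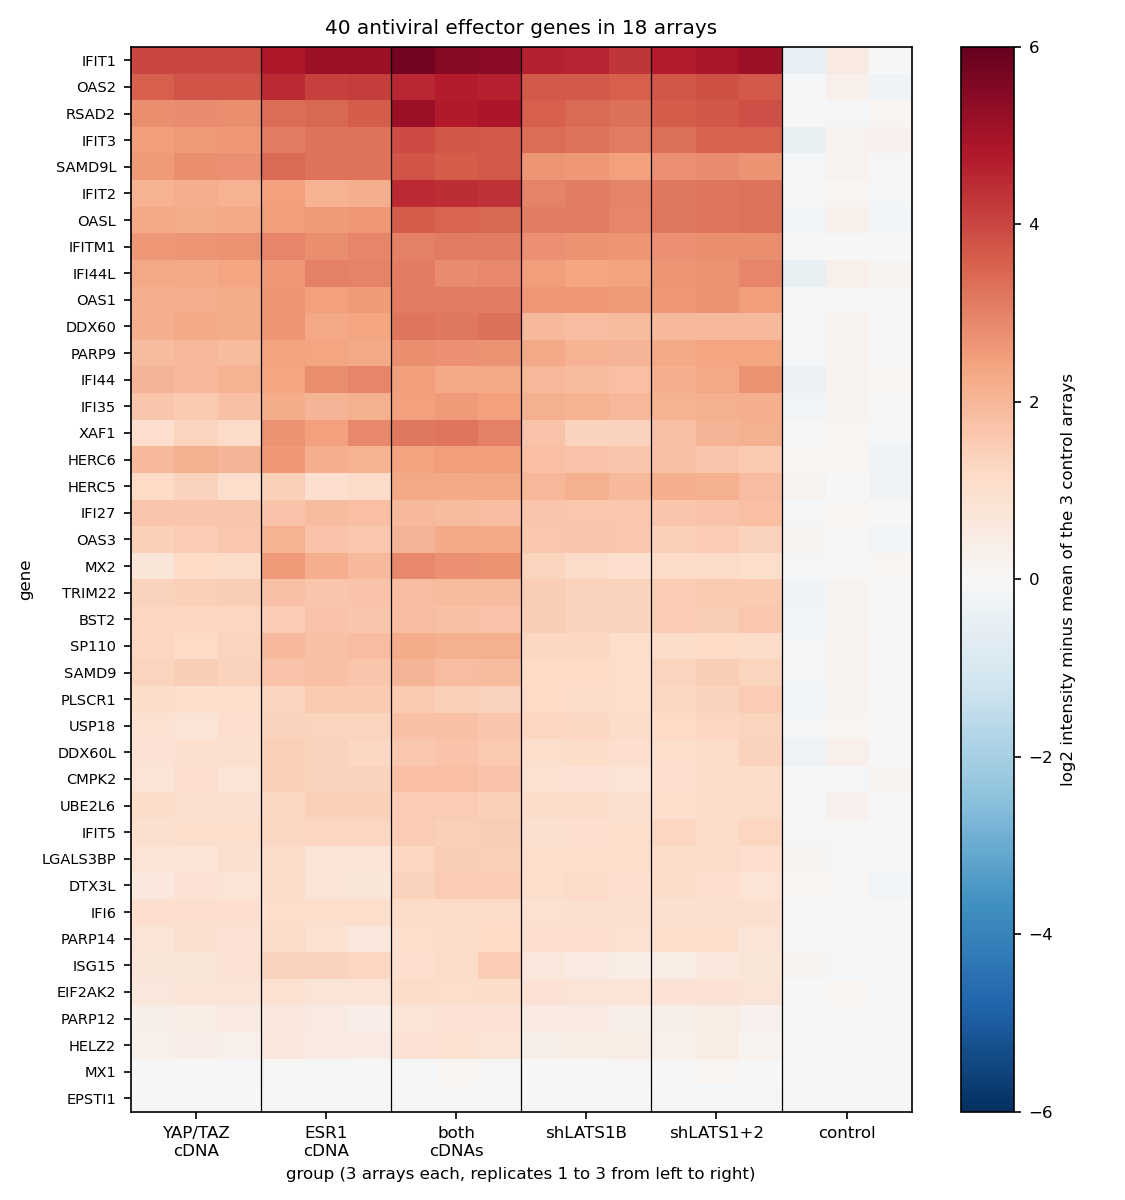
Log2 intensity of the 40 effector genes (rows) in the 18 arrays (columns, replicates 1 to 3 of each group), minus the mean of the 3 control arrays, with genes ordered by their mean change. All but the bottom 2 rows, MX1 and EPSTI1, are above the control in all 15 arrays of the 5 groups, and 29 genes have their 3 highest arrays in the group with both cDNAs.

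The IFIT proteins bind foreign RNA by its ends. IFIT1 recognises caps that lack a methyl mark and was the steepest riser of all 18404 genes in each of the 5 comparisons. IFIT1 read 9.66, 9.65 and 9.63 with YAP/TAZ cDNA, 10.43, 10.78 and 10.84 with ESR1 cDNA, 11.37, 11.10 and 11.08 with both cDNAs, 10.26, 10.21 and 9.92 with shLATS1B and 10.35, 10.55 and 10.84 with shLATS1+2, against 5.14, 6.17 and 5.61 in the control arrays. No array of a group came near the controls, although the controls themselves spanned about 1 unit. The rise was 16.1-fold with YAP/TAZ cDNA (log2 change 4.00 ± 0.19 SE; limma, adjusted p = 6.8e-10), 32.9-fold with ESR1 cDNA (5.04 ± 0.19) and 46.6-fold with both (5.54 ± 0.19). It was 22.5-fold with shLATS1B and 30.6-fold with shLATS1+2 (log2 changes 4.49 ± 0.19 and 4.94 ± 0.19). IFIT2, which assembles with IFIT1 and IFIT3, followed another order. IFIT2 read 7.78, 7.83 and 7.78 with YAP/TAZ cDNA, 8.13, 7.75 and 7.87 with ESR1 cDNA, 10.13, 10.08 and 9.999 with both cDNAs, 8.65, 8.75 and 8.64 with shLATS1B and 8.83, 8.89 and 8.94 with shLATS1+2, against 5.68, 5.79 and 5.54 in the control arrays. The single cDNAs were close to each other, the knockdowns clearly higher than both, and the group with both cDNAs higher again, with no overlap between these 3 levels. The log2 changes of IFIT2 were 2.13, 2.25, 4.40, 3.01 and 3.22, in the order YAP/TAZ, ESR1, both, shLATS1B and shLATS1+2, which is also used below wherever 5 changes are listed.

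IFIT3 stabilises IFIT1 on RNA. IFIT3 read 8.40, 8.47 and 8.49 with YAP/TAZ cDNA, 8.96, 9.15 and 9.14 with ESR1 cDNA, 9.79, 9.64 and 9.58 with both cDNAs, 9.25, 9.17 and 8.99 with shLATS1B and 9.20, 9.45 and 9.41 with shLATS1+2, against 5.44, 6.11 and 6.14 in the control arrays. Its first control array was lower than the others, as in IFIT1, and its log2 changes were 2.56, 3.18, 3.77, 3.24 and 3.46. IFIT5, which binds triphosphate ends of RNA, had the smallest rise of the 4. IFIT5 read 9.16, 9.25 and 9.24 with YAP/TAZ cDNA, 9.43, 9.48 and 9.48 with ESR1 cDNA, 9.74, 9.63 and 9.67 with both cDNAs, 9.16, 9.23 and 9.28 with shLATS1B and 9.49, 9.34 and 9.49 with shLATS1+2, against 8.11, 8.27 and 8.24 in the control arrays. Its log2 changes were 1.01, 1.26, 1.48, 1.02 and 1.23, each with an SE of 0.055. The 4 genes are neighbours on chromosome 10, IFIT2 beside IFIT3 and IFIT1 beside IFIT5.

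The OAS enzymes detect paired RNA strands and make the oligoadenylate that switches on the nuclease RNase L. OAS2 had the second largest rise of the 40 genes in every group except that with both cDNAs, where its rank was 3. OAS2 read 10.24, 10.43 and 10.39 with YAP/TAZ cDNA, 11.09, 10.73 and 10.77 with ESR1 cDNA, 11.15, 11.36 and 11.29 with both cDNAs, 10.33, 10.33 and 10.23 with shLATS1B and 10.37, 10.47 and 10.32 with shLATS1+2, against 6.54, 6.95 and 6.41 in the control arrays. Its fold changes were 13.2, 18.7, 24.8, 12.7 and 13.5 (log2 changes 3.72, 4.23, 4.63, 3.66 and 3.75, SE 0.12; limma, adjusted p = 3.7e-12 for YAP/TAZ cDNA). OAS1 and OAS3, its neighbours on chromosome 12, rose less. OAS1 read 10.88, 10.88 and 10.94 with YAP/TAZ cDNA, 11.37, 11.18 and 11.25 with ESR1 cDNA, 11.82, 11.85 and 11.80 with both cDNAs, 11.33, 11.31 and 11.25 with shLATS1B and 11.32, 11.40 and 11.24 with shLATS1+2, against 8.59, 8.81 and 8.75 in the control arrays. OAS3 read 9.24, 9.32 and 9.39 with YAP/TAZ cDNA, 9.89, 9.53 and 9.43 with ESR1 cDNA, 9.83, 10.09 and 10.10 with both cDNAs, 9.42, 9.45 and 9.39 with shLATS1B and 9.24, 9.33 and 9.17 with shLATS1+2, against 7.96, 7.77 and 7.65 in the control arrays. OAS1 rose by log2 2.19, 2.56, 3.11, 2.58 and 2.61 and OAS3 by 1.52, 1.82, 2.21, 1.63 and 1.45, and for OAS3 the lowest of the 5 groups was shLATS1+2.

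OASL, which has lost the synthetase activity and strengthens RNA sensing by RIGI, ranked the groups as IFIT2 did. OASL read 8.70, 8.63 and 8.71 with YAP/TAZ cDNA, 8.93, 8.96 and 9.01 with ESR1 cDNA, 10.05, 9.90 and 9.87 with both cDNAs, 9.50, 9.55 and 9.34 with shLATS1B and 9.58, 9.65 and 9.67 with shLATS1+2, against 6.27, 6.73 and 6.24 in the control arrays. Both knockdowns stood above both single cDNAs in every array. Its log2 changes were 2.26, 2.55, 3.53, 3.05 and 3.22 (SE 0.098).

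RSAD2, or viperin, makes a nucleotide that ends viral RNA chains. RSAD2 read 8.24, 8.27 and 8.25 with YAP/TAZ cDNA, 8.81, 8.87 and 9.06 with ESR1 cDNA, 10.55, 10.20 and 10.27 with both cDNAs, 9.02, 8.85 and 8.74 with shLATS1B and 9.06, 9.16 and 9.29 with shLATS1+2, against 5.41, 5.38 and 5.54 in the control arrays. The 3 arrays with both cDNAs were above every other array. The control arrays were close together, not far above 5.21, the 30th percentile of all gene means. RSAD2 rose 7.04-fold, 11.1-fold, 29.9-fold, 10.8-fold and 13.3-fold (log2 changes 2.81, 3.47, 4.90, 3.43 and 3.73, SE 0.093; limma, adjusted p = 9.8e-16 with both cDNAs). CMPK2, a mitochondrial nucleotide kinase whose gene lies next to RSAD2 on chromosome 2, rose by log2 0.89, 1.40, 1.77, 0.87 and 1.07. CMPK2 read 7.89, 8.07 and 7.87 with YAP/TAZ cDNA, 8.46, 8.43 and 8.45 with ESR1 cDNA, 8.83, 8.87 and 8.75 with both cDNAs, 7.96, 7.94 and 7.86 with shLATS1B and 8.03, 8.18 and 8.16 with shLATS1+2, against 7.01, 6.93 and 7.20 in the control arrays.

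MX1 and MX2 are dynamin-like GTPases that trap viral nucleocapsids, and their genes are neighbours on chromosome 21. They behaved differently on these arrays. MX2 read 6.11, 6.54 and 6.46 with YAP/TAZ cDNA, 7.89, 7.53 and 7.29 with ESR1 cDNA, 8.23, 8.12 and 8.06 with both cDNAs, 6.71, 6.53 and 6.39 with shLATS1B and 6.52, 6.49 and 6.40 with shLATS1+2, against 5.25, 5.37 and 5.46 in the control arrays. ESR1 cDNA and both cDNAs were clearly higher than the other 3 groups, which overlapped with each other. The log2 changes of MX2 were 1.01, 2.21, 2.77, 1.18 and 1.11 (SE 0.13). MX1 read 5.18, 5.16 and 5.14 with YAP/TAZ cDNA, 5.26, 5.11 and 5.15 with ESR1 cDNA, 5.12, 5.30 and 5.25 with both cDNAs, 5.23, 5.16 and 5.25 with shLATS1B and 5.17, 5.32 and 5.21 with shLATS1+2, against 5.10, 5.24 and 5.24 in the control arrays. These values overlap throughout, and the log2 change of MX1 lay between -0.03 (95% interval from -0.16 to 0.09) and 0.04 (95% interval from -0.08 to 0.16). The MX1 probe set lay at or near 5.21, the 30th percentile of all gene means, in every group, and whether its target was detected was not tested. EPSTI1, the other gene that did not pass, read between 4.61 and 4.79 over all 18 arrays, below that percentile. Its largest change was -0.08, with shLATS1+2 (95% interval from -0.16 to 0.01).

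**Figure D2:**
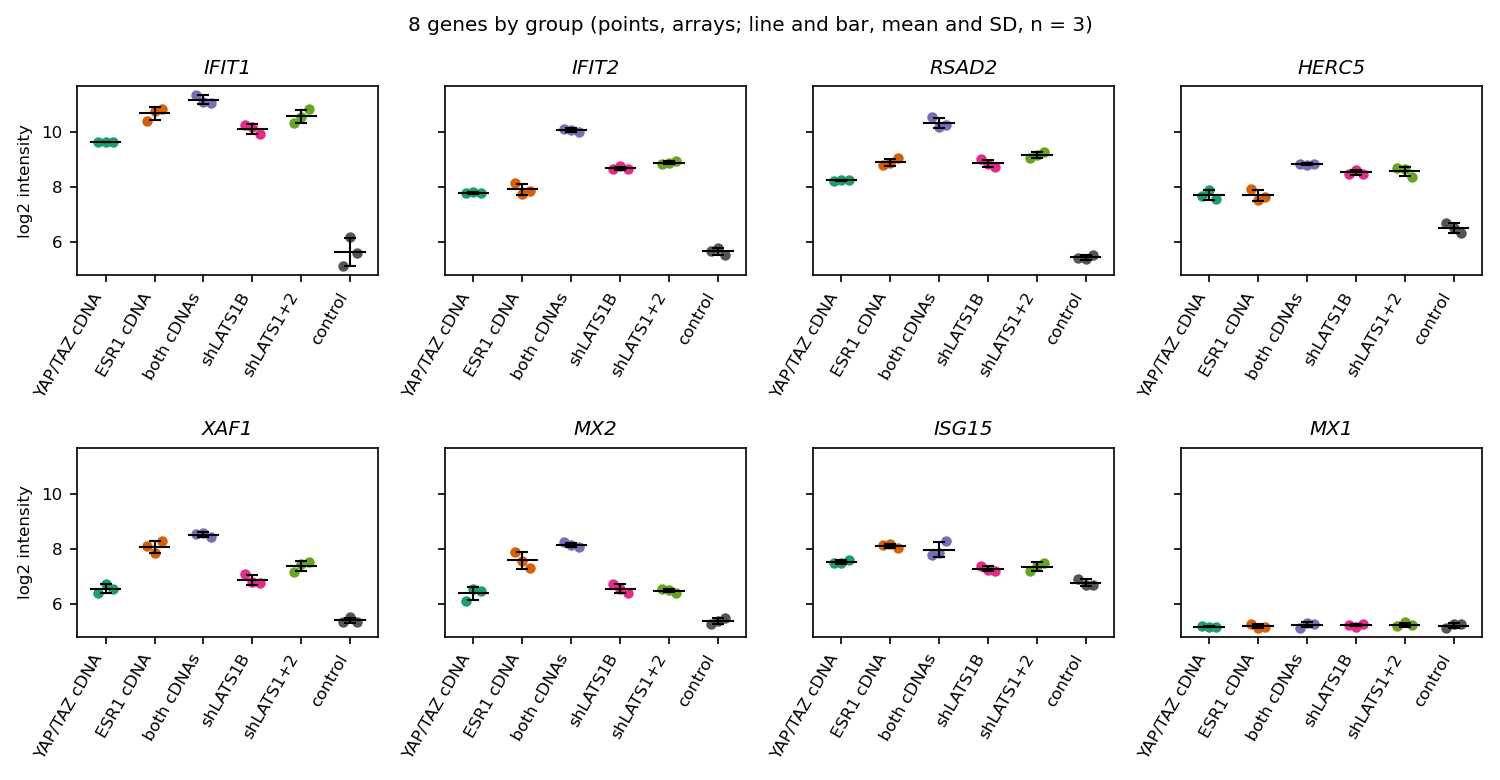
Log2 intensity (vertical axis) of 8 effector genes in the 6 groups (horizontal axis), with the 3 arrays as points and the mean and SD as line and bar (n = 3). IFIT1 is far above the control in all 5 groups, IFIT2 and HERC5 are higher with the knockdowns than with either single cDNA, XAF1 and MX2 are higher with ESR1 cDNA than with YAP/TAZ cDNA, and MX1 stays between 5.10 and 5.32.

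ISG15 is a ubiquitin-like protein that is attached to other proteins by the enzymes UBE2L6 and HERC5 and removed by USP18. ISG15 read 7.47, 7.49 and 7.60 with YAP/TAZ cDNA, 8.12, 8.15 and 8.03 with ESR1 cDNA, 7.76, 7.86 and 8.26 with both cDNAs, 7.37, 7.23 and 7.19 with shLATS1B and 7.17, 7.37 and 7.49 with shLATS1+2, against 6.90, 6.67 and 6.68 in the control arrays. ESR1 cDNA gave the highest mean, although 1 array with both cDNAs reached above it, and the knockdowns gave the lowest. ISG15 rose by log2 0.77, 1.35, 1.21, 0.51 and 0.59 (SE 0.11; limma, adjusted p = 0.0019 with shLATS1B), far less than IFIT1. HERC5 read 7.69, 7.90 and 7.55 with YAP/TAZ cDNA, 7.93, 7.53 and 7.65 with ESR1 cDNA, 8.86, 8.80 and 8.84 with both cDNAs, 8.49, 8.64 and 8.48 with shLATS1B and 8.68, 8.66 and 8.37 with shLATS1+2, against 6.71, 6.51 and 6.33 in the control arrays. Here the knockdowns and both cDNAs were above the single cDNAs, which overlapped, and the log2 changes were 1.20, 1.19, 2.32, 2.02 and 2.06 (SE 0.12). USP18 read 9.48, 9.32 and 9.58 with YAP/TAZ cDNA, 9.96, 9.90 and 9.88 with ESR1 cDNA, 10.30, 10.31 and 10.23 with both cDNAs, 9.88, 9.80 and 9.66 with shLATS1B and 9.74, 9.88 and 9.91 with shLATS1+2, against 8.47, 8.69 and 8.54 in the control arrays. USP18, which also dampens signalling at the interferon receptor, rose by 0.89, 1.34, 1.72, 1.21 and 1.27. UBE2L6 rose by 1.00, 1.37, 1.49, 1.04 and 1.10. HERC6, the neighbour of HERC5 on chromosome 4 and the main ISG15 ligase in mouse, rose by 2.03, 2.28, 2.47, 1.72 and 1.66, an order unlike that of HERC5.

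Several effectors sit in membranes. BST2, or tetherin, holds budding virions at the cell surface. BST2 read 10.82, 10.80 and 10.82 with YAP/TAZ cDNA, 11.04, 11.23 and 11.20 with ESR1 cDNA, 11.36, 11.27 and 11.25 with both cDNAs, 11.01, 10.93 and 10.93 with shLATS1B and 11.04, 10.99 and 11.16 with shLATS1+2, against 9.38, 9.68 and 9.53 in the control arrays. The arrays of the 5 groups ran from 10.80 to 11.36, while the controls stayed at or below 9.68, and the log2 changes were 1.28, 1.63, 1.77, 1.43 and 1.53. IFITM1, which hinders fusion of virus with the cell membrane, rose by log2 2.65, 2.89, 3.08, 2.70 and 2.78 (SE 0.045). IFI27, a small mitochondrial protein, was already bright in the control. IFI27 read 12.10, 12.06 and 12.07 with YAP/TAZ cDNA, 12.12, 12.34 and 12.25 with ESR1 cDNA, 12.36, 12.31 and 12.26 with both cDNAs, 12.08, 12.05 and 12.04 with shLATS1B and 12.10, 12.15 and 12.20 with shLATS1+2, against 10.28, 10.53 and 10.45 in the control arrays. Its log2 changes were 1.66, 1.82, 1.89, 1.64 and 1.73. IFI6, a protein of the endoplasmic reticulum, averaged 13.13, 13.19, 13.29, 13.08 and 13.10, against 12.13 in the control arrays. The highest value of any probe set in the table is 13.75, so IFI6 was measured close to the top of the scale. Its log2 changes were 1.00, 1.06, 1.16, 0.95 and 0.97. PLSCR1, a phospholipid scramblase, rose by 1.08, 1.48, 1.45, 1.13 and 1.38.

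IFI44L and IFI44 are neighbours on chromosome 1 and both restrict viral replication. IFI44L read 11.23, 11.22 and 11.28 with YAP/TAZ cDNA, 11.55, 11.97 and 11.90 with ESR1 cDNA, 11.99, 11.77 and 11.80 with both cDNAs, 11.46, 11.32 and 11.35 with shLATS1B and 11.59, 11.62 and 11.86 with shLATS1+2, against 8.47, 9.22 and 9.12 in the control arrays. The first control array was the lowest, and ESR1 cDNA and both cDNAs overlapped. IFI44L rose by log2 2.31, 2.88, 2.92, 2.45 and 2.75 (SE 0.15). IFI44 rose by 2.03, 2.70, 2.38, 1.90 and 2.39 (SE 0.15), highest with ESR1 cDNA.

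EIF2AK2, the kinase PKR, halts translation when it meets paired RNA. EIF2AK2 read 10.73, 10.84 and 10.83 with YAP/TAZ cDNA, 10.99, 10.84 and 10.89 with ESR1 cDNA, 11.17, 11.14 and 11.17 with both cDNAs, 10.92, 10.88 and 10.88 with shLATS1B and 10.93, 10.93 and 10.84 with shLATS1+2, against 10.05, 10.20 and 9.94 in the control arrays. Its rise was small in all 5 groups, with log2 changes of 0.74, 0.84, 1.09, 0.83 and 0.84 (SE 0.058; limma, adjusted p = 2.9e-07 with YAP/TAZ cDNA). DDX60, a helicase that assists RIGI, rose by 2.22, 2.44, 3.22, 1.90 and 1.94, and its neighbour DDX60L by 0.92, 1.35, 1.64, 1.04 and 1.19. SAMD9 and SAMD9L, neighbours on chromosome 7 that restrict poxviruses, rose by 1.40, 1.72, 1.92, 1.14 and 1.39 and by 2.69, 3.30, 3.70, 2.58 and 2.76. PARP9 and DTX3L, which form an ADP-ribosylation and ubiquitin ligase complex, rose by 1.93, 2.35, 2.74, 2.13 and 2.34 and by 0.78, 0.88, 1.48, 1.07 and 0.98. PARP14 rose by 0.88, 0.93, 1.10, 0.96 and 0.96 and PARP12 by 0.44, 0.52, 0.86, 0.45 and 0.36, both mono-ADP-ribosyltransferases. TRIM22, a ubiquitin ligase, rose by 1.43, 1.72, 1.88, 1.40 and 1.56, and IFI35, which binds other interferon-induced proteins, by 1.66, 2.14, 2.49, 2.06 and 2.13. SP110, a nuclear body protein, rose by 1.29, 1.84, 2.16, 1.17 and 1.13, LGALS3BP, a secreted glycoprotein, by 0.87, 0.94, 1.40, 1.05 and 1.08, and the helicase HELZ2, which had the smallest rise of the 38 genes in 4 of the 5 groups, by 0.34, 0.54, 0.85, 0.41 and 0.31. Whether probes of paralogous genes share signal was not analysed here.

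XAF1, which opposes the apoptosis inhibitor XIAP, separated the groups more than most. XAF1 read 6.37, 6.71 and 6.53 with YAP/TAZ cDNA, 8.10, 7.83 and 8.27 with ESR1 cDNA, 8.53, 8.58 and 8.42 with both cDNAs, 7.08, 6.78 and 6.75 with shLATS1B and 7.16, 7.45 and 7.51 with shLATS1+2, against 5.34, 5.498 and 5.32 in the control arrays. ESR1 cDNA and both cDNAs were above all arrays of the other groups, and shLATS1+2 was above shLATS1B and YAP/TAZ cDNA. Its log2 changes were 1.15, 2.68, 3.12, 1.48 and 1.99 (SE 0.12; limma, adjusted p = 8.7e-06 with YAP/TAZ cDNA).

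The 5 groups were then compared with each other directly. Where a count of genes in 1 direction was 0, in these comparisons and in those with the control, it was also 0 at an unadjusted p under 0.05, except between the knockdowns. With both cDNAs, 35 of the 38 genes that rose had their highest mean, and 29 had all 3 arrays above the other 15 (4.21% of all genes did). ISG15, IFI44 and PLSCR1 had theirs with ESR1 cDNA, but the differences between both cDNAs and ESR1 cDNA were not called (log2 -0.14 ± 0.11, -0.32 ± 0.15 and -0.02 ± 0.087; limma, adjusted p = 0.42, 0.14 and 0.89). The lowest of the 5 means fell to YAP/TAZ cDNA for 22 of the 38 genes, to shLATS1B for 10, to shLATS1+2 for 5 and to ESR1 cDNA for 1, HERC5.

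Against YAP/TAZ cDNA, both cDNAs were higher for 36 of the 40 genes and lower for 0, where 12.3% and 10.5% of all genes were called higher and lower. The median difference was log2 0.65. The largest were those of IFIT2 (2.27 ± 0.081), RSAD2 (2.09 ± 0.093), XAF1 (1.97 ± 0.12), MX2 (1.76 ± 0.13) and IFIT1 (1.54 ± 0.19; limma, adjusted p = 1.8e-05). Against ESR1 cDNA, both cDNAs were higher for 26 genes and lower for 0 (16.2% and 12.9% of all genes), with a median of 0.33. IFIT2 led by 2.15 ± 0.081, followed by RSAD2 (1.43 ± 0.093), HERC5 (1.13 ± 0.12), OASL (0.97 ± 0.098) and DDX60 (0.78 ± 0.087; limma, adjusted p = 4.5e-06). Both of these comparisons cross the division of the first component.

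ESR1 cDNA, against YAP/TAZ cDNA, was higher for 15 genes and lower for 0, where 0.315% and 0.288% of all genes were called higher and lower. The median difference was 0.33, and 39 of the 40 genes were above 0, where the median over all genes was -0.0009. XAF1 differed by 1.53 ± 0.12 (limma, adjusted p = 9.4e-06), MX2 by 1.20 ± 0.13, IFIT1 by 1.04 ± 0.19 (not called without any 1 of 5 of these 6 arrays), RSAD2 by 0.66 ± 0.093 and SAMD9L by 0.60 ± 0.086. This count rests on the spread estimated over all 18 arrays: with only the 6 arrays compared it was 1, XAF1, and leaving out single arrays moved it between 9 and 24. The lowest count, 9, came without any 1 of the 3 YAP/TAZ arrays or without the third ESR1 array, and the highest without the first ESR1 array. IFIT2 (0.12, 95% interval from -0.05 to 0.29) and HERC5 (-0.01, 95% interval from -0.25 to 0.24) were not called.

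Between the 2 knockdowns, 0 of the 40 genes were called higher or lower with shLATS1+2 than with shLATS1B (limma), where 0.141% and 0.179% of all genes were. At an unadjusted p under 0.05 there were 11 higher and 0 lower. The share of all genes at that threshold was not counted, so the 11 are not read as a result about the list. The median difference was 0.08 and 31 of the 40 genes were above 0, where the median over all genes was -0.0093. XAF1 differed by 0.50 (95% interval from 0.25 to 0.76) and IFIT1 by 0.45 (95% interval from 0.04 to 0.86), so differences of that size are not set aside by the missed threshold.

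The knockdowns and the single cDNAs differed gene by gene, with called genes in both directions. Here and against YAP/TAZ cDNA, counts of few genes are not read as a result about the list. With shLATS1B, against ESR1 cDNA, 3 genes were higher and 21 lower, where 15.1% and 10.3% of all genes were. The higher ones were HERC5 (0.83 ± 0.12), IFIT2 (0.77 ± 0.081) and OASL (0.50 ± 0.098; limma, adjusted p = 0.0012). The largest negative differences were those of XAF1 (-1.20 ± 0.12), MX2 (-1.03 ± 0.13), ISG15 (-0.83 ± 0.11), IFI44 (-0.80 ± 0.15) and SAMD9L (-0.72 ± 0.086). With shLATS1+2, against ESR1 cDNA, the counts were 3 higher and 13 lower (11.4% and 8.04% of all genes). The 3 were again IFIT2 (0.97 ± 0.081), HERC5 (0.86 ± 0.12) and OASL (0.67 ± 0.098), while MX2 (-1.10 ± 0.13), ISG15 (-0.75 ± 0.11), SP110 (-0.71 ± 0.083), XAF1 (-0.69 ± 0.12) and HERC6 (-0.62 ± 0.11; limma, adjusted p = 0.00049) were lowest. The count of 3 for shLATS1B became 5 without the first ESR1 array. The 2 knockdown comparisons share the ESR1 arrays.

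Against YAP/TAZ cDNA, shLATS1B was higher for 8 genes and lower for 2 (10.7% and 8.12% of all genes), and shLATS1+2 higher for 14 and lower for 2 (9.85% and 9.04%). With shLATS1B the largest differences were IFIT2 (0.89 ± 0.081), HERC5 (0.82 ± 0.12), OASL (0.79 ± 0.098), IFIT3 (0.68 ± 0.14) and RSAD2 (0.61 ± 0.093), and the lower genes DDX60 (-0.32 ± 0.087) and SAMD9 (-0.26 ± 0.073; limma, adjusted p = 0.017). With shLATS1+2 they were IFIT2 (1.09 ± 0.081), OASL (0.95 ± 0.098), IFIT1 (0.93 ± 0.19), RSAD2 (0.92 ± 0.093) and IFIT3 (0.90 ± 0.14), and the lower genes HERC6 (-0.37 ± 0.11) and DDX60 (-0.28 ± 0.087; limma, adjusted p = 0.031). The counts of lower genes fell to 0 when single arrays were left out: 0 to 3 for shLATS1B, moved by YAP/TAZ replicate 2 and shLATS1B replicates 2 and 3, and 0 to 2 for shLATS1+2, moved by YAP/TAZ replicates 2 and 3 and by each of its own 3 arrays. With only the arrays compared in the fit, shLATS1B had 14 genes higher and 4 lower. The comparisons of the knockdowns with the single cDNAs cross the division of the first component.

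Against both cDNAs, which lie on the same side of that division, shLATS1B was lower for 34 genes and higher for 0 (5.81% and 5.3% of all genes), and shLATS1+2 lower for 31 and higher for 0 (10.2% and 9.62%). The median differences were -0.48 and -0.42. XAF1 and MX2 differed most with shLATS1B (-1.64 ± 0.12 and -1.59 ± 0.13; limma, adjusted p = 4.4e-07), and MX2 and DDX60 with shLATS1+2 (-1.66 ± 0.13 and -1.29 ± 0.087; limma, adjusted p = 6.5e-08). HERC5, by contrast, was not called in either (-0.30, 95% interval from -0.55 to -0.05, and -0.26, 95% interval from -0.51 to -0.02).

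**Figure D3:**
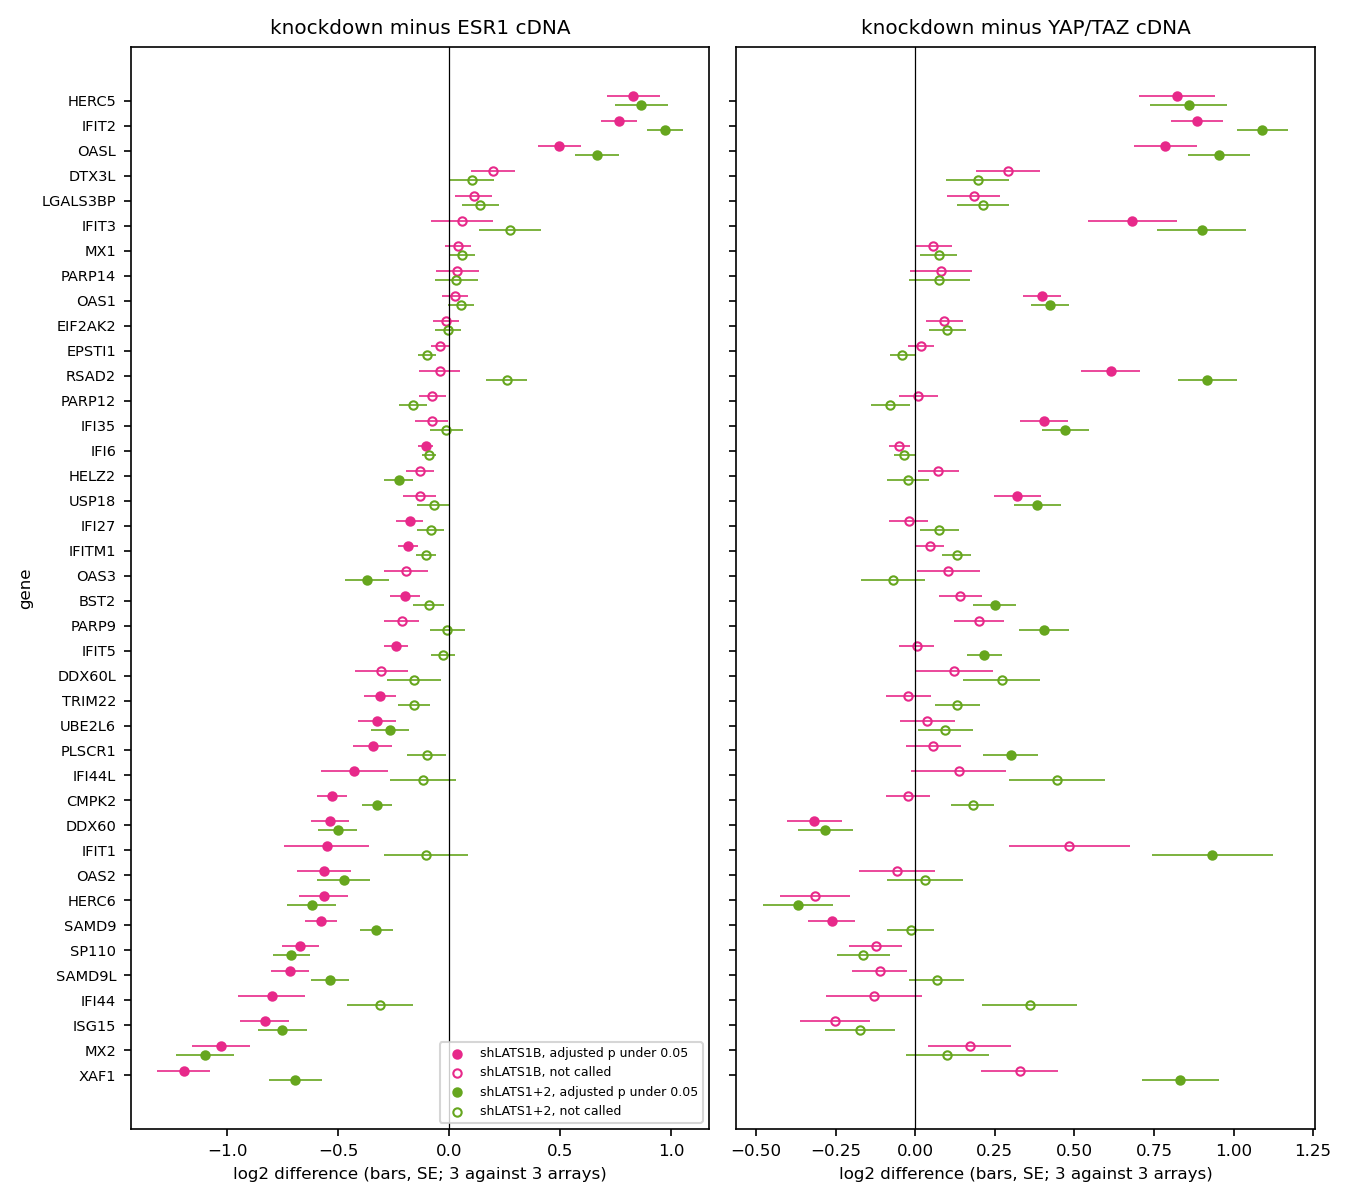
Log2 difference (horizontal axis, with SE bars, 3 against 3 arrays) of the 40 effector genes (vertical axis) between each knockdown and ESR1 cDNA (left) or YAP/TAZ cDNA (right), with filled points for an adjusted p under 0.05. HERC5, IFIT2 and OASL are to the right of 0 in both panels for both knockdowns, and XAF1 and MX2 are to the left against ESR1 cDNA only.

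The rank order of the genes by their log2 change from control was alike at its ends and differed in the middle, in 5 comparisons that share the control arrays. IFIT1 was first in all 5, OAS2 and RSAD2 held ranks 2 and 3, and EIF2AK2, PARP12, HELZ2, MX1 and EPSTI1 lay between ranks 35 and 40. IFIT3 held ranks 4 to 6 and OAS1 ranks 8 to 10. The 5 genes named for the widest ranges were HERC5, MX2, XAF1, IFIT2 and CMPK2. CMPK2 shared its range of 9 ranks with IFI44, SP110 and USP18 and was taken by alphabetical order. HERC5 ranked 22, 31, 18, 13 and 14, in the order of groups given above, so it was lowest with ESR1 cDNA and highest with the knockdowns. MX2 ranked 26, 16, 13, 23 and 28, and XAF1 ranked 23, 9, 9, 19 and 15, both higher where ESR1 cDNA was present. IFIT2 ranked 11, 15, 4, 6 and 6, and CMPK2 30, 25, 25, 34 and 31. Ranks carry no test here, and the differences between groups that stand behind them are those given above. The control means of MX2, XAF1, RSAD2, IFIT1 and IFIT2 lay between 5.36 and 5.67, not far above the 30th percentile of 5.21. Whether dim control signals narrowed their rises was not tested.

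**Figure D4:**
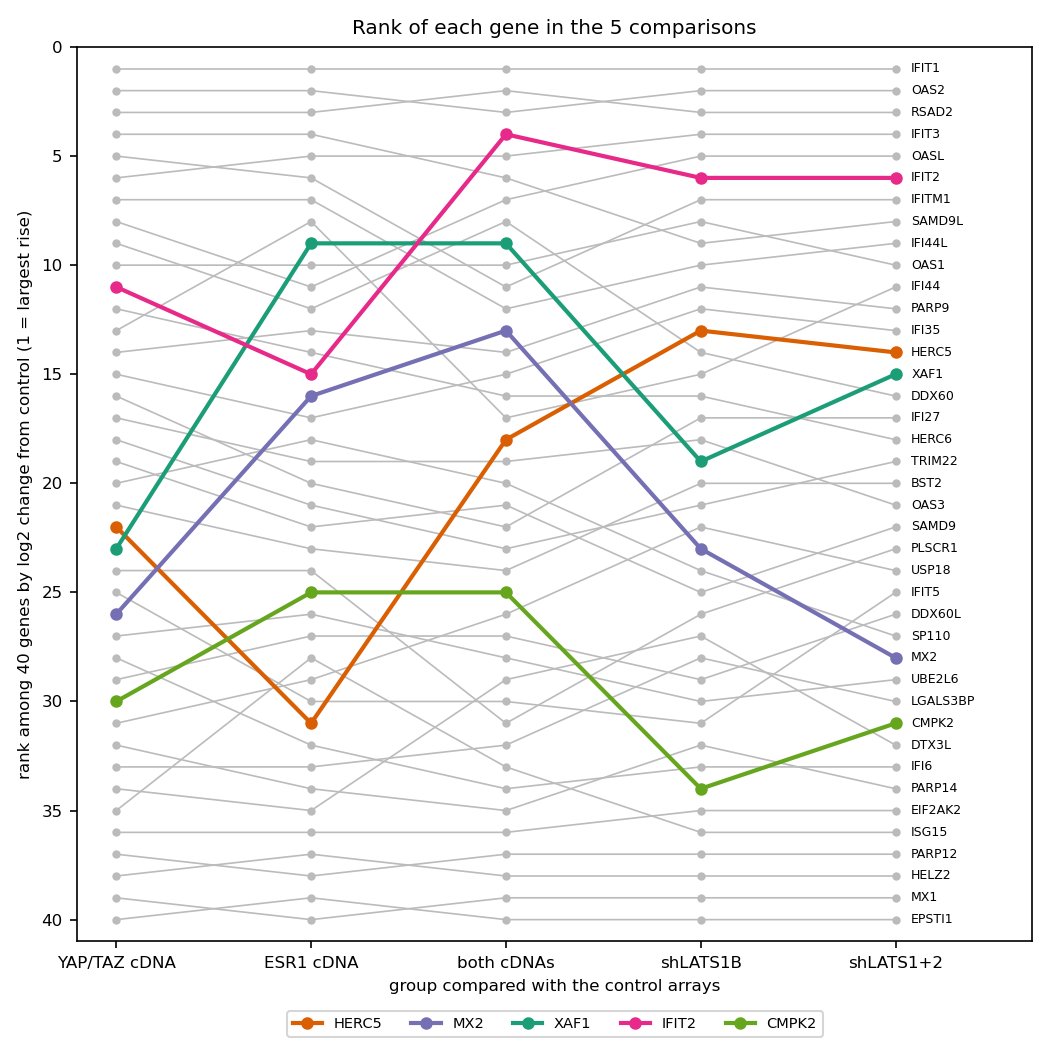
Rank of each of the 40 effector genes by log2 change from control (vertical axis, 1 is the largest rise) in the 5 comparisons (horizontal axis). The 5 genes named for the widest range are in colour, of which CMPK2 tied with IFI44, SP110 and USP18. IFIT1 stays at rank 1, while HERC5 moves between ranks 13 and 31 and MX2 between 13 and 28.

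The last question was whether the rises with the 2 single cDNAs add up. On the log2 scale the interaction is the change with both cDNAs minus the sum of the changes with each. It was called below 0 for 32 of the 40 genes and above 0 for 0 (limma), where 7.68% and 11.4% of all genes were called below and above, and its median was -1.03. IFIT1 had -3.50 ± 0.28 (limma, adjusted p = 1.6e-07), OAS2 -3.32 ± 0.16, IFITM1 -2.46 ± 0.064, IFI44 -2.35 ± 0.22 and SAMD9L -2.29 ± 0.12. A negative value on this scale means that the folds did not multiply, and signals can still have added. IFITM1 averaged 12.37, 12.60 and 12.79 with YAP/TAZ, ESR1 and both cDNAs, where the highest value of any probe set is 13.75. Whether the top of the scale limited such bright genes was not tested. IFIT2 (0.03, 95% interval from -0.21 to 0.27), HERC5 (-0.07, 95% interval from -0.42 to 0.28), HELZ2 (-0.02), PARP12 (-0.10), DTX3L (-0.18) and MX2 (-0.45) were not called, nor were MX1 and EPSTI1. On the linear scale, the rise of mean intensity with both cDNAs divided by the sum of the single rises had a median of 0.84 over the 38 genes, from 0.49 for IFI44 to 2.83 for IFIT2. It was above 1 for 10 genes and below 1 for 28. RSAD2 had 1.79, HERC5 1.55, MX2 1.26 and OASL 1.21, while IFIT1 had 0.97 and IFIT3 0.98. These ratios carry no test, and the group with both cDNAs lies across the division of the first component from the other 3 groups in them.

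**Figure D5:**
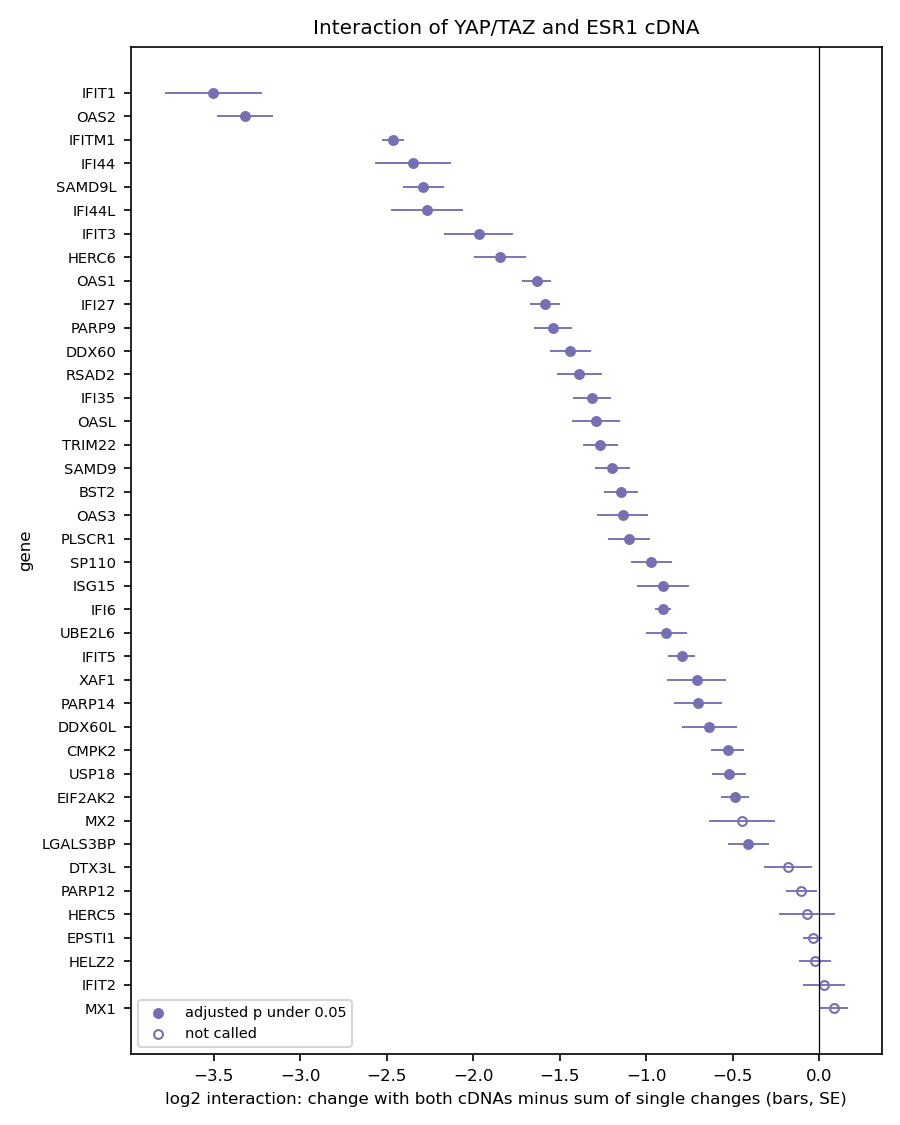
Interaction between YAP/TAZ cDNA and ESR1 cDNA for the 40 effector genes (vertical axis) on the log2 scale (horizontal axis, with SE bars, from 3 arrays in each of 4 groups), filled for an adjusted p under 0.05. The values run from -3.50 for IFIT1 to near 0 for IFIT2, HERC5, HELZ2 and MX1.

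Genes upstream of the effectors were taken from lists written with earlier results of these data known. Of 21 interferon genes 16 were measured, and 13 of them stayed under the 30th percentile in all groups. Of these 16 genes 0, 2, 2, 1 and 1 rose in the 5 groups. The shares of all genes that rose were 3.16%, 7.04%, 14.7%, 12.4% and 11.8%. The shares that fell were 3.84%, 11.9%, 14.7%, 11.6% and 13.0%. Both apply to every list below, markers included. In lists this short, a count of few genes is not read as a result about the list. IFNL1, a type III interferon, was called higher in all but the YAP/TAZ group. IFNL1 read 6.20, 6.24 and 6.18 with YAP/TAZ cDNA, 6.50, 6.43 and 6.45 with ESR1 cDNA, 6.79, 6.81 and 6.62 with both cDNAs, 6.48, 6.43 and 6.39 with shLATS1B and 6.42, 6.45 and 6.40 with shLATS1+2, against 6.02, 5.78 and 6.18 in the control arrays. The third control array equalled the third YAP/TAZ array to the second decimal, and no other group reached down to the controls. IFNL1 changed by log2 0.21, 0.47, 0.75, 0.44 and 0.43 (SE 0.075; limma, adjusted p = 0.12 with YAP/TAZ cDNA and 8e-07 with both). IFNL3 passed with ESR1 cDNA (0.34 ± 0.11) and IFNL2 with both (0.27 ± 0.089). These 2 genes are near-identical copies whose probe sets may share signal.

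Of 9 receptor and kinase genes, 1, 1, 4, 4 and 3 rose and 0, 2, 1, 0 and 0 fell in the 5 groups. The shares of all genes are those given with the interferon genes. IFNGR1, a chain of the receptor for interferon gamma, was the gene that rose in all 5, by 0.58, 0.82, 0.72, 0.74 and 1.09. The kinase JAK2 rose with both cDNAs (0.42 ± 0.083). Other means lay below the control. The receptor gene IFNAR2 averaged 7.60 with ESR1 cDNA and 7.55 with both cDNAs, against 7.84 in the control arrays. The kinase gene TYK2 averaged 7.24 with ESR1 cDNA, against 7.48, and 7.49 with both cDNAs. Of 9 signal factors 7 were measured and 3, 3, 4, 4 and 3 rose. IRF9 read 9.50, 9.55 and 9.71 with YAP/TAZ cDNA, 9.89, 9.64 and 9.75 with ESR1 cDNA, 10.33, 10.40 and 10.41 with both cDNAs, 10.10, 10.24 and 10.17 with shLATS1B and 10.22, 10.18 and 10.15 with shLATS1+2, against 8.01, 8.55 and 8.21 in the control arrays. IRF9, the DNA-binding part of the interferon-activated complex, thus rose by 1.33, 1.50, 2.13, 1.92 and 1.93 (SE 0.1). IRF1 read 7.41, 7.49 and 7.57 with YAP/TAZ cDNA, 7.71, 7.32 and 7.52 with ESR1 cDNA, 8.62, 8.65 and 8.75 with both cDNAs, 8.49, 8.65 and 8.46 with shLATS1B and 8.65, 8.54 and 8.40 with shLATS1+2, against 6.87, 6.81 and 6.62 in the control arrays. IRF1, a transcription factor that also binds ISRE-like sites, stood at 2 levels among the 5 groups, both above the control arrays. ESR1 cDNA differed from YAP/TAZ cDNA by 0.02 (95% interval from -0.17 to 0.22), and shLATS1B was higher than ESR1 cDNA by 1.02 ± 0.092 (limma, adjusted p = 4.3e-07), shLATS1+2 by 1.02 ± 0.092 and both cDNAs by 1.16 ± 0.092. HERC5, IFIT2 and OASL likewise had both knockdowns above both single cDNAs. The first component divides the 5 groups in the same way, but it places the control arrays with the single cDNAs. In these 4 genes the control arrays lay below the single cDNAs. IRF7, which drives interferon genes, rose by 0.55, 0.87, 1.11, 0.77 and 0.77.

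Of 13 sensors and adaptors, 5, 6, 9, 7 and 7 rose and 0, 0, 0, 0 and 1 fell. The RNA sensor IFIH1 rose by 1.77, 1.96, 2.50, 1.77 and 1.81 and RIGI by 1.63, 1.96, 2.56, 2.08 and 2.21. TLR3, which senses RNA in endosomes, rose by 0.95, 1.16, 1.60, 0.87 and 0.98. The kinase IKBKE rose with both cDNAs and the knockdowns (1.06, 0.92 and 1.03), and had 0.11 and 0.10 with the single cDNAs, where it was not called.

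Of 8 markers of mammary basal epithelium, 5 were measured, and their mean per array lay between 10.16 and 10.92 in the 5 groups, against 10.80 to 11.00 in the control arrays. In the 5 groups 0, 1, 0, 0 and 0 of them rose and 1, 1, 3, 3 and 3 fell. The 1 that rose was EGFR, with ESR1 cDNA (0.36 ± 0.086). KRT14, a keratin of basal cells, fell in all 5, with log2 changes of -0.73, -0.78, -2.28, -2.57 and -2.36 (SE 0.14; limma, adjusted p = 0.003 with YAP/TAZ cDNA). KRT5, the partner of KRT14 in filaments, and the integrin ITGB4 fell with both cDNAs and the knockdowns, with log2 changes of -0.35, -0.27 and -0.42 for KRT5 and -0.21, -0.28 and -0.38 for ITGB4. Of 7 luminal markers, all measured, 0, 1, 5, 5 and 5 rose and 1, 0, 0, 0 and 0 fell. Their mean per array lay between 8.54 and 8.77 with the single cDNAs, against 8.56 to 8.67 in the control arrays. With both cDNAs and the knockdowns it lay between 8.93 and 9.19. ESR1, the gene of 1 of the cDNAs, is part of these means and was the 1 marker that rose with ESR1 cDNA. FOXA1 was the 1 that fell with YAP/TAZ cDNA (-0.25 ± 0.061). The 5 that rose with both cDNAs, shLATS1B and shLATS1+2 were KRT8 (0.65, 1.10 and 0.91), EPCAM (0.63, 0.67 and 0.72), FOXA1 (0.46, 0.65 and 0.57), KRT18 (0.32, 0.63 and 0.49) and ESR1 itself. These are the 3 groups in which HERC5, IFIT2, OASL and IRF1 were highest, and the part of the epithelial markers in the results was not tested.

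Of 13 measured leukocyte markers, 7 or 8 lay under the 30th percentile in each group. Their mean per array lay between 5.33 and 5.48 in the 5 groups, against 5.30 to 5.33 in the control arrays. PTPRC, which marks all leukocytes, averaged 4.41 to 4.44, against 4.48. In the 5 groups 1, 2, 2, 1 and 1 of the 13 rose and 0 fell. CD14 rose in all 5, by 0.62, 0.49, 2.01, 1.82 and 1.70. CSF1R, a myeloid marker, rose with ESR1 cDNA (0.20 ± 0.057) and with both cDNAs (0.18 ± 0.057). The part of these 2 genes in the results was not tested. Of 5 endothelial markers 4 stayed under that percentile in every group, and PECAM1 rose with both cDNAs and the knockdowns (0.28, 0.55 and 0.85). Of 6 fibroblast markers 0 rose in any group and 1, DCN, fell in all 5. DCN, the gene for the matrix proteoglycan decorin, averaged 5.13, 5.06, 4.54, 4.52 and 4.55 in the 5 groups, against 6.67 in the control arrays, whose values spread from 6.02 to 7.22. Its log2 changes were -1.54, -1.61, -2.13, -2.15 and -2.12 (SE 0.19; limma, adjusted p = 5.6e-05 with YAP/TAZ cDNA). The mean of the 6 markers per array was at most 5.39 in the 5 groups, against 5.48 to 5.67 in the control arrays, and 2 or 3 of them were under the 30th percentile in each group. Their part in the results was not tested.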

How the data were processed

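Total RNA of 18 MCF10A samples was measured on Affymetrix whole-transcript arrays, with 100 ng of RNA per array per the labels' protocols. The authors deposited 1 column of log2 intensities per array for 32321 probe sets, from 3.561 to 13.75, with array medians of 5.494 to 5.619. For software, the submitters' processing notes give affy without a version. Background correction, normalization, probe summary and genome build are not stated in any source used here. Arrays of a group correlated at r = 0.993 to 0.998 across probe sets, and 0 pairs of columns were identical. The labels do not say whether replicates were separate cultures, so the p-values reflect the spread among these arrays alone, which may be technical, and 3 arrays a group limit the precision.

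Gene names came from GEO's platform annotation: 19158 probe sets had 1 gene symbol, 1388 several and 11775 none, and 19128 matched a RefSeq gene identifier. Where several probe sets named the same gene (637 of 18404 genes), the brightest on average stood for it, and dim genes were not filtered out. All 18 arrays entered 1 fit with a mean per group in limma 3.58.1 (R 4.3.3), on 12 residual degrees of freedom to which moderation added 3.94. Tests were two-sided, with Benjamini-Hochberg adjustment over all genes of a comparison and a call at an adjusted p under 0.05. Fold changes give the size of the change with the log2 undone, and standard errors and 95% intervals are those of the moderated fit. The code was tested on simulated data. Groups came from sample titles.

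The 40 genes and the lists of upstream, other pathway and cell marker genes were chosen with earlier results of these data known. Values per array are given for the IFIT, OAS and MX genes, for RSAD2, ISG15, IFI27, IFI44L, BST2, USP18, HERC5 and EIF2AK2, and for any gene among the 3 largest changes of a comparison with control. XAF1, CMPK2, IFNL1, IRF9, IRF1 and CXCL10 were added after their values were seen. Direct differences and the interaction are named for up to 5 called genes of each sign, rank order for the 5 widest ranges, and other lists for up to 4 called genes with the largest change. Further genes that did not pass are named for contrast after their values were seen. Alternatives were the replicate number as a block, median centring, quantile normalization, brighter genes only (above the 30th percentile of gene means), the mean over a gene's probe sets, every probe set, only the groups compared, an intensity trend, and leaving out each array.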

Additional observations from a re-analysis of the deposited data

Results flagged for a closer look

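The change with both cDNAs differed from the sum of the changes with YAP/TAZ cDNA and with ESR1 cDNA for 32 of the 40 effector genes, by a test of that difference itself (limma's interaction term, adjusted p under 0.05 over all genes, 7.68% of which were called below 0). The values with the largest size were -3.50 for IFIT1, -3.32 for OAS2, -2.46 for IFITM1, -2.35 for IFI44 and -2.29 for SAMD9L, on the log2 scale. Whether the top of the intensity scale limited IFITM1, at 12.79 with both cDNAs, was not tested. The group with both cDNAs lies across the first principal component from the 3 other groups in this term. Group and batch cannot be told apart here, as in every comparison.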

How the results depend on the processing

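The 38 genes called higher against control stayed at 38 in each of the 5 comparisons. This held under every alternative that kept all 40 genes and without each single array. The count of lower genes stayed at 0 except after median centring, where EPSTI1 was called lower with shLATS1+2. In the 200 results of single genes against control, 1589 of 1590 values under the other settings and 3600 of 3600 without single arrays kept their call; the exception was EPSTI1 with shLATS1+2, which was called at -0.13 after median centring. ESR1 cDNA against YAP/TAZ cDNA was the least stable: 15 genes were higher, but 1 with only the groups compared in the fit, and 9 to 24 without single arrays. For shLATS1B against YAP/TAZ cDNA, only the groups compared gave 14 higher in place of 8 and 4 lower in place of 2, and single arrays 0 to 3 lower. For shLATS1+2 against YAP/TAZ cDNA, 1 gene was lower in place of 2 with every probe set fitted, and 0 to 2 without single arrays. Both cDNAs against ESR1 cDNA had 0 to 1 lower without single arrays (1 without the first ESR1 array or the third array with both cDNAs), and shLATS1B against ESR1 cDNA 3 to 5 higher. With fewer arrays in the fit the spread rests on fewer residual degrees of freedom; beyond that the cause was not tested. Of 55 named direct differences, 435 of 440 values under other settings and 972 of 990 without single arrays kept their call, and the others kept their direction. The deviations of 45 same-numbered pairs from different groups correlated from -0.694 to 0.631 (median -0.083), 13 of them above 0.1. For the 90 pairs with other numbers they ran from -0.633 to 0.533 (median 0.063), 39 of them above 0.1. Arrays with the same replicate number were thus no more alike than others. What the larger correlations between groups stem from was not tested. With the replicate block the count against control was 38 in each comparison, ESR1 cDNA against YAP/TAZ cDNA had 12 genes higher, both cDNAs against ESR1 cDNA 25, and the interaction 32 lower. No signal over background is given for these arrays, so what MX1 and EPSTI1 could show is limited by their dim probe sets.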

Other observations

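Outside the antiviral effectors, genes linked mainly to interferon gamma changed in part. Of 11 measured genes of that list, 4, 5, 6, 4 and 5 rose with YAP/TAZ cDNA, ESR1 cDNA, both cDNAs, shLATS1B and shLATS1+2, and 0 fell. Of all genes 3.16%, 7.04%, 14.7%, 12.4% and 11.8% rose. The chemokine CXCL10, which attracts T cells, was the steepest with both cDNAs. CXCL10 read 8.29, 8.16 and 8.18 with YAP/TAZ cDNA, 8.44, 8.79 and 9.01 with ESR1 cDNA, 10.30, 9.86 and 9.86 with both cDNAs, 9.48, 9.31 and 8.85 with shLATS1B and 9.42, 9.62 and 10.05 with shLATS1+2, against 5.497, 6.08 and 5.87 in the control arrays. The knockdowns lay above YAP/TAZ cDNA in every array, and the log2 changes were 2.39, 2.93, 4.19, 3.40 and 3.88 (limma, adjusted p = 5.3e-07 with YAP/TAZ cDNA). CXCL11, which binds the same receptor, changed by 2.45, 3.25, 3.47, 2.01 and 2.58 and, unlike CXCL10, was higher with ESR1 cDNA than with shLATS1B (shLATS1B minus ESR1 cDNA -1.24 ± 0.21; limma, adjusted p = 0.00027). The GTPase GBP2 rose by 0.58, 0.56, 1.98, 0.89 and 1.07 and GBP3 by 0.45, 0.62, 0.44, 0.27 and 0.43.

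Antigen presentation genes rose as well, 5, 9, 9, 8 and 8 of 10 measured, and 0 fell. The shares of all genes that rose are those just given. PSMB9 and PSMB8, catalytic subunits of the immunoproteasome, rose by log2 1.34, 1.58, 1.87, 1.57 and 1.69 and 0.70, 1.04, 0.72, 0.64 and 1.00. TAP1, a subunit of the peptide transporter, rose by 0.84, 0.95, 1.24, 0.90 and 0.88, B2M, the light chain of class I molecules, by 0.83, 1.04, 0.93, 0.70 and 0.92, and the trimming peptidase ERAP1 by 0.43, 0.48, 0.90, 0.88 and 0.79.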
